A study of Gallus gallus with 48 samples.

Results

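Liver of Tibetan chickens labelled 3300 m was set against liver of Tibetan chickens labelled 670 m, across all genes of an RNA-sequencing table. The members are 6 libraries, chosen by tissue, bird code and altitude label: 3 from 3300 m, coded TC, and 3 from 670 m, coded LTC. They are 6 of the 12 liver libraries and of the 48 libraries of the series, which sampled brain, heart, liver and lung with 3 libraries per group. The other 6 liver libraries came from lowland chickens and carry the codes HLC at 3300 m and LC at 670 m. The codes are not spelled out in the labels, so Tibetan and lowland were read from the code together with the altitude. No breed beyond that, no age, no sex and no time at altitude is given, and no label says whether the 3 libraries in a group were from different birds. A p-value below therefore measures the spread between libraries, which may be technical, and altitude cannot be told apart from feed, housing, flock or sex where these went with it.

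The liver makes most plasma proteins and lipoproteins, builds cholesterol and bile acids, stores glycogen and iron, and makes ketone bodies from fatty acids. In birds it is also the main site of fatty acid synthesis. At high altitude vertebrate cells respond to the low oxygen pressure through hypoxia-inducible factors, which in mammals raise genes of glycolysis, iron handling and vessel growth.

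Values are FPKM, fragments scaled to transcript length and to the mapped fragments of the library, as deposited. In the TC livers between 8498 and 8839 genes reached 1 FPKM, against 9612 to 9675 in the LTC livers. The median gene stood at 0.975 to 1.15 FPKM in the TC livers and at 1.84 to 1.90 FPKM in the LTC livers. The 10 most abundant genes took 30.3% to 36.8% of the summed FPKM in the TC livers, against 43.2% to 48.9% in the LTC livers. On the log2 scale the TC livers correlated with each other at 0.961 to 0.976, the LTC livers with each other at 0.968 to 0.976, and TC with LTC livers at 0.915 to 0.937. None of the 12 liver libraries was a copy of another. Depth is unknown, since FPKM keeps no read counts, and it could not be compared between the groups.

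The tissue label was checked with marker genes. FABP1, the liver fatty acid-binding protein, lay at 3277 to 16058 FPKM in the 6 libraries and at or below 25.6 FPKM in every brain, heart and lung library of the Tibetan chickens. Of 8 hepatocyte markers in the table, only OTC, a urea-cycle enzyme, was listed at 0 in all 6 livers. Not every marker was highest in liver: the median of AASS, an enzyme of lysine breakdown, was 16.3 FPKM in liver, 62.4 FPKM in lung and 42.2 FPKM in heart, and that of SLC25A47 was 5.89 FPKM in liver and 13.5 FPKM in brain. The 7 striated muscle markers summed to at most 1.499 FPKM and the 6 neuron markers to at most 4.45 FPKM. The 4 endothelial markers summed to 57.0 to 101 FPKM in TC and 45.6 to 54.4 FPKM in LTC, mostly from RAMP2, which was higher, while FLT1 and FLT4 were lower and the median log2 fold change of the 4 was -0.57. The 5 biliary markers summed to 4.20 to 8.15 FPKM in TC and 6.56 to 7.56 FPKM in LTC. Of the 3 biliary markers tested 1 was higher and 2 lower, with a median log2 fold change of -0.81. With quantile normalization 1 was higher and 0 lower. KRT19, a biliary marker, had a median of 2.99 FPKM in liver and 72.7 FPKM in lung. Marker sums of other cell types are given beside the gene groups they move with. In bulk tissue, fewer cells of a type and less RNA per cell cannot be told apart.

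Of 9944 genes tested, 933 were higher in the TC livers (9.38%) and 4104 were lower (41.3%), so that 50.7% were past an adjusted p of 0.05 in limma. The median log2 fold change of FPKM + 1, TC minus LTC, was -0.36 over all genes tested, and single log2 fold changes are given ± their standard error where one is shown. Genes past the threshold with a log2 fold change of at least 1 in size numbered 363 higher (3.65%) and 1040 lower (10.5%), and those of at least 2 numbered 55 higher (0.553%) and 82 lower (0.825%). The 3 TC values lay all above or all below the 3 LTC values in 58.1% of genes tested.

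**Figure D1:**
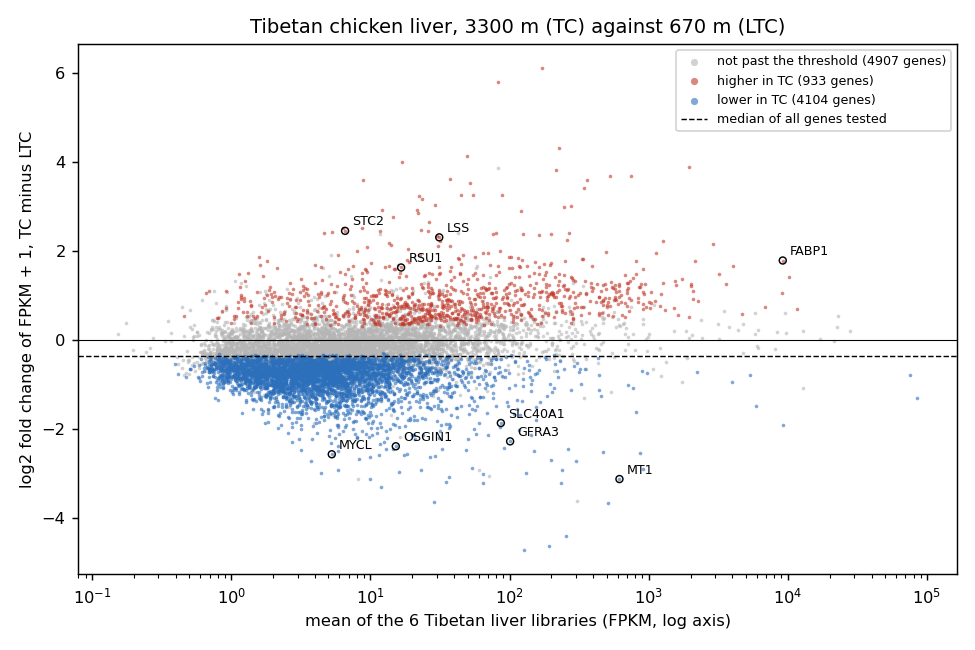
Each point is a gene tested; the horizontal axis is the mean of the 6 Tibetan liver libraries in FPKM on a log axis, and the vertical axis is the log2 fold change of FPKM + 1, TC minus LTC. Red points are the 933 genes higher in TC, blue points the 4104 lower, grey points those not past the threshold, and the dashed line marks the median of -0.36; the blue genes crowd at low levels and the red ones at high levels.

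The direction went with the level of the gene. With the genes tested split by mean FPKM into 4 bins of 2486, 644 were higher and 519 lower in the TC livers in the top bin, with a median log2 fold change of 0.05. In the bottom bin 62 were higher and 1263 lower, with a median of -0.49. In the next bin up 75 were higher and 1309 lower, with a median of -0.50. A gene could enter the test on its LTC values alone, and the part of this filter in the low bins was not tested. With no filter the median over 14750 genes was -0.16. At a mean of at least 5 FPKM, 794 of 5573 genes were higher and 1819 lower, with a median of -0.21. The balance also depended on scaling. With every library brought to the same upper quartile 1374 genes were higher (13.8%) and 3102 lower (31.2%), 45.0% in all with a median of -0.21, and with quantile normalization, which gives all libraries the same distribution, 1543 were higher (15.5%) and 1674 lower (16.8%), 32.4% in all with a median of -0.02. Of the 933 higher genes 775 were also higher after quantile normalization, and of the 4104 lower genes 1617 were also lower, while none of the 4104 became higher. Over all genes tested 9.38% were higher and 41.3% lower, with a median of -0.36. Each list below is read beside these and beside the shares of genes with a symbol. These data cannot tell whether FPKM or a rescaled value is nearer to the RNA of a cell.

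**Figure D2:**
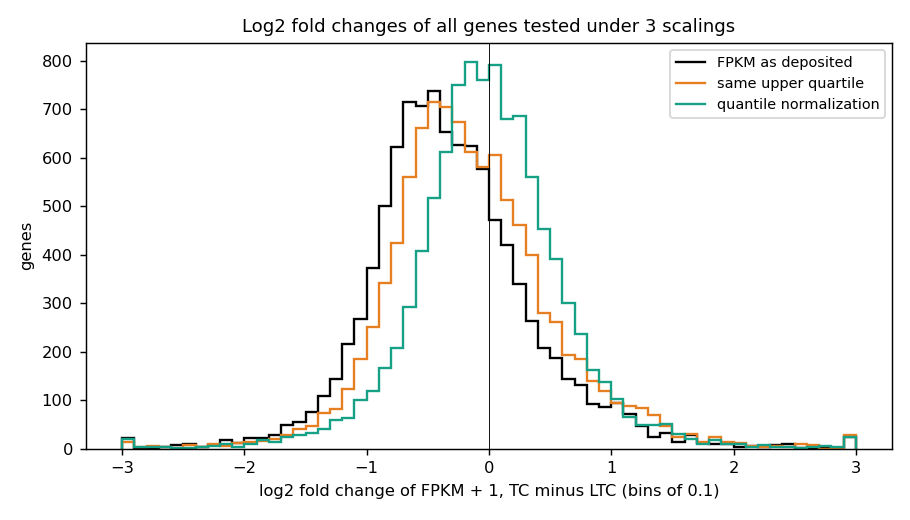
Number of genes tested (vertical axis) per bin of 0.1 of the log2 fold change of FPKM + 1, TC minus LTC (horizontal axis), for FPKM as deposited (black), libraries scaled to the same upper quartile (orange) and quantile normalization (green). Values beyond 3 in size are drawn in the outermost bins; the median moves from -0.36 to -0.21 and -0.02.

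A gene symbol was at hand for 756 of the 9944 genes tested, of which 48 were higher (6.35%), 403 lower (53.3%) and 305 not past the threshold, so that 59.7% passed. The genes with a symbol were thus lower more often than all genes tested, and the lists below hold only such genes. A list with about 53.3% of its members lower is therefore at the share of genes with a symbol at large. Among genes with a symbol and no overlap between the groups, the 12 largest rises and 11 of the 12 largest falls are described below with their role, together with up to 4 members of each gene list. Lack of overlap was required for these rises and falls, so it is not a result about them where stated below. It held in 58.1% of all genes tested.

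**Figure D3:**
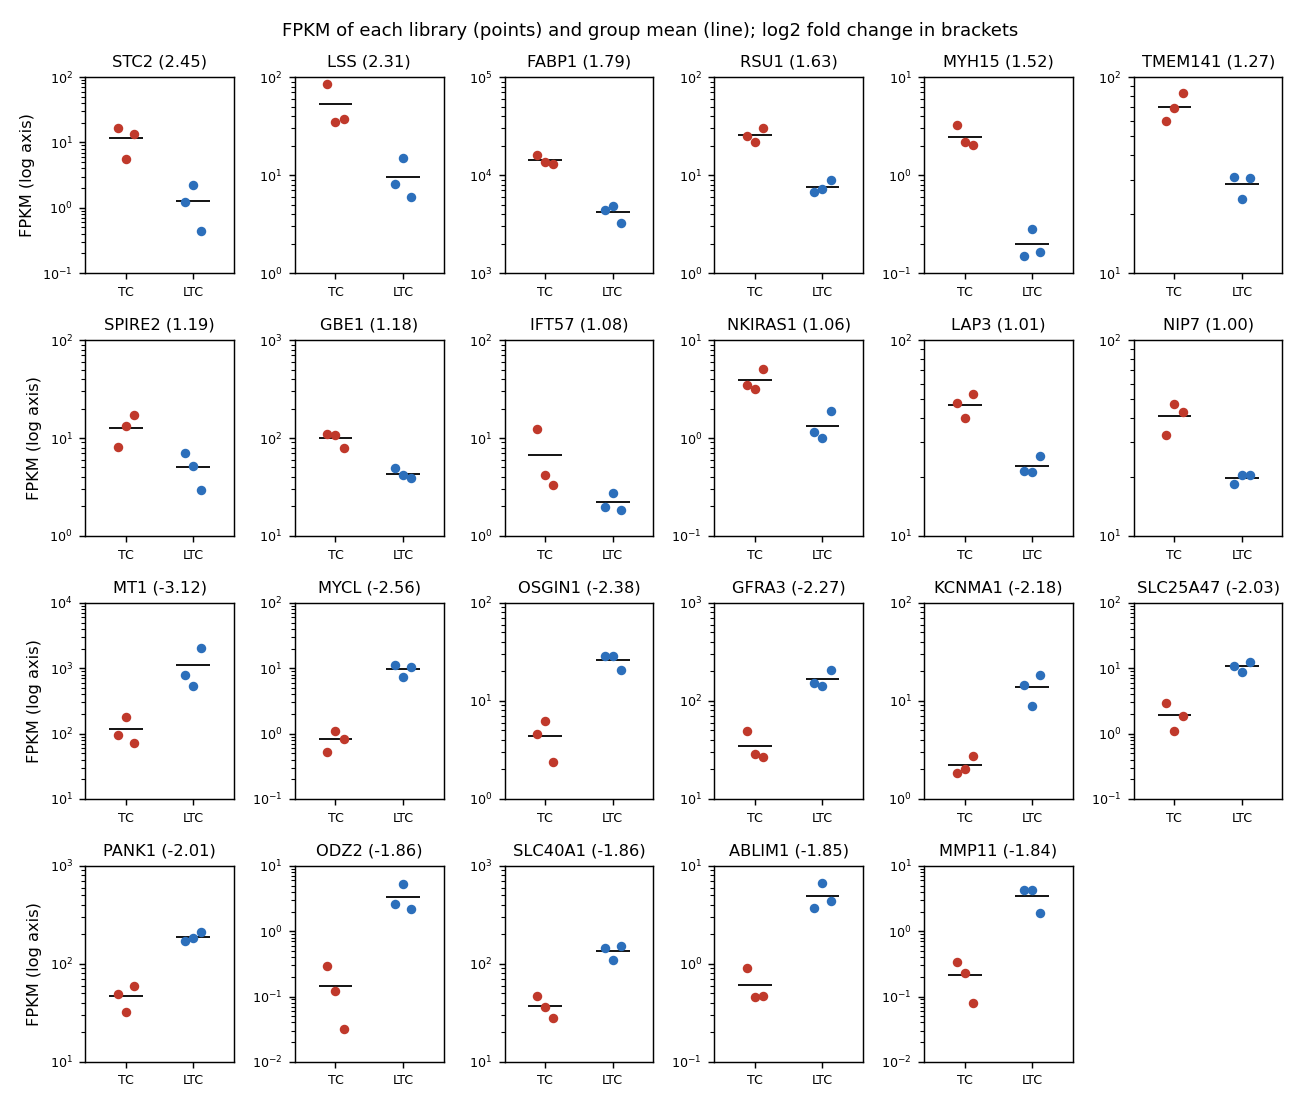
FPKM on a log axis (vertical) of the 12 genes with a symbol that were most raised in TC (upper 12 panels) and of 11 of the 12 most lowered (lower 11 panels), with TC left (red) and LTC right (blue). Points are single libraries, the line is the group mean and the bracket holds the log2 fold change, from 2.45 for STC2 to -3.12 for MT1. Lack of overlap between the groups was required for these genes.

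LSS was 1 of only 2 listed sterol and isoprenoid genes called higher. LSS (ENSGALG00000006198, chromosome 7) encodes lanosterol synthase, which closes the sterol rings. It stood at 86.0, 35.0 and 37.8 FPKM in the TC livers, against 8.16, 14.8 and 5.94 FPKM in the LTC livers. All TC values were above all LTC values, and TC replicate 1 was the highest (log2 fold change 2.31 ± 0.34, limma adjusted p = 0.00042). HSD17B12, a reductase of very long-chain fatty acid elongation, reached 90.5, 80.8 and 78.0 FPKM in the TC livers, against 46.5, 45.8 and 42.1 FPKM in the LTC livers, which made it higher as well (0.88, adjusted p = 0.0014). MBTPS1, the site-1 protease that cleaves the sterol-regulated transcription factors SREBP, went the other way, with 7.45, 5.73 and 8.37 FPKM in the TC livers, against 13.1, 12.9 and 15.6 FPKM in the LTC livers (-0.87, adjusted p = 0.00078). ERLIN1, an endoplasmic reticulum protein of the same control loop, missed the threshold (-0.38, adjusted p = 0.055), though not without LTC replicate 2 (0.026). Of 30 listed sterol and isoprenoid genes only 8 had a symbol and were tested, with a median of 0.20. Among them 2 were higher and 1 lower, against 6.35% higher and 53.3% lower among genes with a symbol. With the upper quartile scaling 4 were higher and 1 lower.

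Of the fatty acid, lipoprotein and bile acid genes tested, 9 of 14 were lower, against 53.3% of genes with a symbol, while FABP1 rose. FABP1 (ENSGALG00000004141, chromosome 23), the carrier of fatty acids in the hepatocyte cytosol and the most abundant gene with a symbol, had 16058, 13598 and 13019 FPKM in the TC livers, against 4393, 4799.6 and 3277 FPKM in the LTC livers. The 3 TC values were close to each other and far above the LTC values (log2 fold change 1.79 ± 0.17, limma adjusted p = 7.9e-05). Its call was lost only in the fit of all 48 libraries, where the spread is shared with tissues that hardly express it (adjusted p = 0.12). The sum of the 8 hepatocyte markers, 13300 to 16390 FPKM in TC and 3623 to 5214 FPKM in LTC, was mostly FABP1. Among the 7 hepatocyte markers tested, 3 were higher and 2 lower.

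Among the members that fell, OSBPL10, PPARGC1B and MIA3 were chosen for their small p-values in limma. Their groups did not overlap, which held in 58.1% of all genes tested. OSBPL10, an oxysterol-binding protein relative, fell to 2.28, 1.71 and 1.71 FPKM in the TC livers, against 5.31, 6.57 and 6.66 FPKM in the LTC livers (-1.31, adjusted p = 0.00014). PPARGC1B, a coactivator of mitochondrial and lipid genes, was likewise lower, with 0.239, 0.450 and 0.544 FPKM in the TC livers, against 2.62, 1.65 and 1.91 FPKM in the LTC livers (-1.11, adjusted p = 0.00074). MIA3, which helps load bulky cargo at endoplasmic reticulum exit sites, showed 7.47, 4.98 and 5.01 FPKM in the TC livers, against 15.5, 14.7 and 10.8 FPKM in the LTC livers (-1.11, adjusted p = 0.00098). Of 14 members tested among 37 listed fatty acid, lipoprotein and bile acid genes, 1 was higher and 9 lower, with a median of -0.74.

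Of the phospholipid enzymes tested 50% were past the threshold, all lower, against 53.3% lower among genes with a symbol. LPCAT2, a lysophosphatidylcholine acyltransferase, had 1.86, 1.82 and 2.14 FPKM in the TC livers, against 3.70, 3.51 and 3.46 FPKM in the LTC livers (-0.63, adjusted p = 0.0015), and TAMM41, which makes the precursor of cardiolipin in mitochondria, had 0.777, 0.636 and 0.539 FPKM in the TC livers, against 1.61, 1.55 and 1.72 FPKM in the LTC livers (-0.67, adjusted p = 0.0019). Neither call held after quantile normalization (adjusted p = 0.36 and 0.21). CHPT1, a cholinephosphotransferase, and PI4KA, a phosphatidylinositol kinase, were also lower (-0.92, adjusted p = 0.016 and -0.45, adjusted p = 0.017). Both calls were lost without LTC replicate 3 or TC replicate 2, CHPT1 also without TC replicate 1 and PI4KA also without LTC replicate 1 or TC replicate 3 (adjusted p up to 0.065 and 0.059). Quantile normalization also removed both (-0.48, adjusted p = 0.15, and -0.19, adjusted p = 0.28), and the upper quartile scaling removed PI4KA (-0.26, adjusted p = 0.14). Of 12 listed genes 10 were tested, with 0 higher, 5 lower and a median of -0.53. Only 2 were past the threshold without LTC replicate 3, 3 without TC replicate 1 or TC replicate 2, and with quantile normalization 1 was higher and 0 lower.

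In coenzyme A synthesis the entry enzyme fell. PANK1 (ENSGALG00000006431, chromosome 6), the pantothenate kinase that sets the rate of the pathway, had 49.5, 32.2 and 60.0 FPKM in the TC livers, against 170.1, 184 and 211 FPKM in the LTC livers. The TC livers were all below the LTC livers (log2 fold change -2.01 ± 0.24, limma adjusted p = 0.00016). SVCT2, a vitamin C transporter, was lower with 3.36, 1.80 and 2.46 FPKM in the TC livers, against 9.04, 6.93 and 11.5 FPKM in the LTC livers (-1.52, adjusted p = 0.0004), as was NADK, which makes NADP from NAD, with 28.6, 20.2 and 22.2 FPKM in the TC livers, against 52.5, 40.8 and 56.2 FPKM in the LTC livers (-1.04, adjusted p = 0.0006). PCBD2, a pterin dehydratase that also binds a hepatocyte transcription factor, was higher with 104, 112 and 133 FPKM in the TC livers, against 58.6, 72.7 and 64.0 FPKM in the LTC livers (0.83, adjusted p = 0.0027). All 10 listed cofactor genes were tested, with a median of -0.33. Among them 2 were higher and 4 lower, against 53.3% lower among genes with a symbol.

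Of the glycogen and sugar genes past the threshold, GBE1 alone rose. GBE1 (ENSGALG00000015506, chromosome 1), the branching enzyme of glycogen synthesis, had 111, 108 and 79.6 FPKM in the TC livers, against 49.0, 41.9 and 38.8 FPKM in the LTC livers. It was higher in every TC liver (log2 fold change 1.18 ± 0.22, limma adjusted p = 0.0015). PDK1, a kinase that shuts off pyruvate dehydrogenase, was lower with 2.18, 1.85 and 2.19 FPKM in the TC livers, against 5.06, 4.24 and 7.53 FPKM in the LTC livers (-1.08, adjusted p = 0.00054), and so was the sugar transporter SLC2A8 with 5.89, 5.78 and 8.05 FPKM in the TC livers, against 11.9, 12.4 and 13.6 FPKM in the LTC livers (-0.86, adjusted p = 0.0005). Of 27 listed genes of glycogen, glucose and sugar metabolism 15 were tested, with a median of -0.54. Among them 1 was higher and 8 lower, against 53.3% lower among genes with a symbol. With quantile normalization 2 were higher and 4 lower.

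Amino acid metabolism had the smallest share of members past the threshold of any list, 26.1% against 59.7% of genes with a symbol. LAP3 (ENSGALG00000006334, chromosome 4), a leucine aminopeptidase that trims peptides, had 47.7, 40.1 and 52.8 FPKM in the TC livers, against 21.5, 21.1 and 25.6 FPKM in the LTC livers (log2 fold change 1.01 ± 0.22, limma adjusted p = 0.0033). HIBADH, a dehydrogenase of valine breakdown, was higher too, with 50.6, 39.4 and 48.1 FPKM in the TC livers, against 23.0, 22.3 and 31.7 FPKM in the LTC livers (0.83, adjusted p = 0.0032). FTCD, which joins histidine breakdown to the folate pool, reached 129.6, 96.3 and 91.3 FPKM in the TC livers, against 57.5, 79.0 and 53.9 FPKM in the LTC livers (0.73, adjusted p = 0.013), a call lost without TC replicate 1 (adjusted p = 0.0502), without LTC replicate 3 (0.053) and with quantile normalization (0.076). SLC7A5, a carrier of large neutral amino acids at the plasma membrane, was lower with 0.963, 1.16 and 1.29 FPKM in the TC livers, against 6.38, 4.54 and 6.28 FPKM in the LTC livers (-1.65, adjusted p = 0.00071). Of 31 listed genes 23 were tested, with 4 higher, 2 lower and 17 not past the threshold, and a median of 0.06.

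Metal genes held the largest fall among genes with a symbol. MT1 (ENSGALG00000014616, chromosome 11), a metallothionein that binds zinc and copper, had 96.4, 181 and 71.8 FPKM in the TC livers, against 778, 528 and 2044 FPKM in the LTC livers. All TC livers were below all LTC livers, and LTC replicate 3 was far above the other LTC livers (log2 fold change -3.12 ± 0.67, limma adjusted p = 0.0027). The log2 fold change without LTC replicate 3 was -2.56. Metallothioneins are near-identical small genes, so reads of MT1 and MT4 may have been split between them. MT4 stood at 690.5, 1471 and 1297 FPKM in the TC livers, against 2487, 1168 and 3224 FPKM in the LTC livers, with overlap (-0.94, adjusted p = 0.11, and 0.030 without LTC replicate 2).

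SLC40A1 (ENSGALG00000002433, chromosome 7), ferroportin, is the iron exporter of the cell. Its levels were 47.5, 36.5 and 27.7 FPKM in the TC livers, against 145, 109 and 154 FPKM in the LTC livers. No TC liver reached the lowest LTC liver (log2 fold change -1.86 ± 0.22, limma adjusted p = 0.00016). SLC30A10, a manganese exporter, was lower with 9.94, 5.89 and 7.57 FPKM in the TC livers, against 25.7, 29.4 and 22.6 FPKM in the LTC livers (-1.63, adjusted p = 0.00017), whereas SLC25A37, mitoferrin-1, which carries iron into mitochondria, was higher with 10.3, 12.4 and 14.8 FPKM in the TC livers, against 4.11, 7.14 and 7.17 FPKM in the LTC livers (0.94, adjusted p = 0.0071, and 0.073 in the fit of all 48 libraries). Only 4 of 10 listed metal genes were tested, with a median of -1.29. Their calls were 1 higher and 2 lower, against 53.3% lower among genes with a symbol.

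Secreted hormones and their receptors gave the largest rise among genes with a symbol. STC2 (ENSGALG00000002893, chromosome 13), stanniocalcin 2, is a secreted glycoprotein hormone. It had 16.4, 5.59 and 13.7 FPKM in the TC livers, against 1.22, 2.203 and 0.442 FPKM in the LTC livers. The lowest TC liver was above the highest LTC liver (log2 fold change 2.45 ± 0.45, limma adjusted p = 0.0012). MDK, the growth factor midkine, was higher as well, with 10.1, 17.3 and 11.4 FPKM in the TC livers, against 7.21, 7.13 and 5.04 FPKM in the LTC livers (0.88, adjusted p = 0.0082).

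GFRA3 (ENSGALG00000007620, chromosome 13), the co-receptor of the neurotrophic factor artemin, had 49.2, 28.5 and 26.6 FPKM in the TC livers, against 152, 143 and 207 FPKM in the LTC livers. The highest TC value was far below the lowest LTC value (log2 fold change -2.27 ± 0.24, limma adjusted p = 0.00011). IGF2R sorts lysosomal enzymes and, in mammals, also clears insulin-like growth factor II. It was lower with 3.04, 2.203 and 1.83 FPKM in the TC livers, against 9.83, 6.90 and 10.4 FPKM in the LTC livers (-1.58, adjusted p = 0.00012). SOCS5, a suppressor of cytokine signalling, was lower with 1.70, 1.17 and 1.39 FPKM in the TC livers, against 2.85, 2.40 and 3.15 FPKM in the LTC livers (-0.65, adjusted p = 0.0015, and 0.37 with quantile normalization). Of 28 listed growth factors, hormones and receptors 16 were tested, with a median of -0.63. Among them 2 were higher and 10 lower, against 53.3% lower among genes with a symbol. With quantile normalization 2 were higher and 5 lower.

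Among transcription factors 57.9% of those tested were past the threshold, all lower, against 53.3% lower among genes with a symbol. MYCL (ENSGALG00000024047, chromosome 23), a member of the Myc family, had 0.527, 1.09 and 0.828 FPKM in the TC livers, against 11.2, 7.43 and 10.6 FPKM in the LTC livers. The TC livers lay near or below 1 FPKM (log2 fold change -2.56 ± 0.37, limma adjusted p = 0.00036). ESR1, the estrogen receptor that drives yolk protein genes in the liver of laying hens, was lower with 5.35, 1.57 and 2.004 FPKM in the TC livers, against 13.1, 11.3 and 11.8 FPKM in the LTC livers (-1.83, adjusted p = 0.0015). ZFHX3, a homeobox factor, was lower with 2.19, 1.12 and 1.61 FPKM in the TC livers, against 4.43, 4.43 and 3.38 FPKM in the LTC livers (-0.96, adjusted p = 0.0017). Of 21 listed factors of liver and growth 19 were tested, with 0 higher, 11 lower and a median of -0.58. With quantile normalization 2 were higher and 4 lower.

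Stress genes were led by OSGIN1 (ENSGALG00000003323, chromosome 11), a growth inhibitor that oxidative stress induces in mammals. Its levels were 4.55, 6.22 and 2.40 FPKM in the TC livers, against 29.0, 28.6 and 20.7 FPKM in the LTC livers. Every TC liver was far below the LTC livers (log2 fold change -2.38 ± 0.46, limma adjusted p = 0.0016). DNAJC13, a co-chaperone of endosomes, was lower with 2.02, 1.24 and 1.49 FPKM in the TC livers, against 6.04, 4.51 and 7.37 FPKM in the LTC livers (-1.43, adjusted p = 0.00019). DNAJB4, a heat-shock co-chaperone, and ZMAT3, a p53 target in mammals, were lower too (-0.79, adjusted p = 0.0016 and -0.75, adjusted p = 0.0029), calls that quantile normalization removed (adjusted p = 0.13 and 0.17). Of 24 listed stress genes 15 were tested, with a median of -0.57. Their calls were 1 higher and 7 lower, against 53.3% lower among genes with a symbol. With quantile normalization 1 was higher and 2 lower.

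In the secretory pathway DAD1, a subunit of the enzyme that attaches N-glycans, was higher with 319.8, 343 and 314 FPKM in the TC livers, against 159, 165 and 169 FPKM in the LTC livers (0.98, adjusted p = 0.00031). SEC24B, a coat protein of vesicles leaving the endoplasmic reticulum, was lower with 3.30, 2.37 and 2.31 FPKM in the TC livers, against 5.17, 5.24 and 5.04 FPKM in the LTC livers (-0.76, adjusted p = 0.0011, and 0.13 with quantile normalization). MBTPS1 and MIA3, given above, belong to the same list. Of 23 listed genes of folding, glycosylation and export 21 were tested, with a median of -0.42. Their calls were 1 higher and 11 lower, against 53.3% lower among genes with a symbol. With quantile normalization 1 was higher and 6 lower.

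Mitochondrial genes were past the threshold in 37.0% of those tested, against 59.7% of genes with a symbol. SLC25A47 (ENSGALG00000011225, chromosome 5), a mitochondrial carrier known from liver, had 2.90, 1.09 and 1.85 FPKM in the TC livers, against 10.8, 8.88 and 12.7 FPKM in the LTC livers. No TC liver came near the LTC livers (log2 fold change -2.03 ± 0.35, limma adjusted p = 0.00079). TFB1M, which modifies mitochondrial ribosomal RNA, was lower with 1.43, 1.20 and 1.57 FPKM in the TC livers, against 3.42, 3.60 and 3.72 FPKM in the LTC livers (-0.93, adjusted p = 0.0005), as were the nucleotide carrier SLC25A36 with 1.303, 0.976 and 1.62 FPKM in the TC livers, against 3.82, 3.012 and 3.75 FPKM in the LTC livers (-0.98, adjusted p = 0.0011) and the import receptor TOMM20 with 41.3, 53.0 and 46.6 FPKM in the TC livers, against 72.9, 74.1 and 72.1 FPKM in the LTC livers (-0.63, adjusted p = 0.0023). All 27 listed genes of mitochondrial ribosome, import and respiratory chain were tested, with 3 higher, 7 lower and 17 not past the threshold. Their median of -0.06 turned to 0.07 with the upper quartile scaling and 0.17 with quantile normalization.

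**Figure D4:**
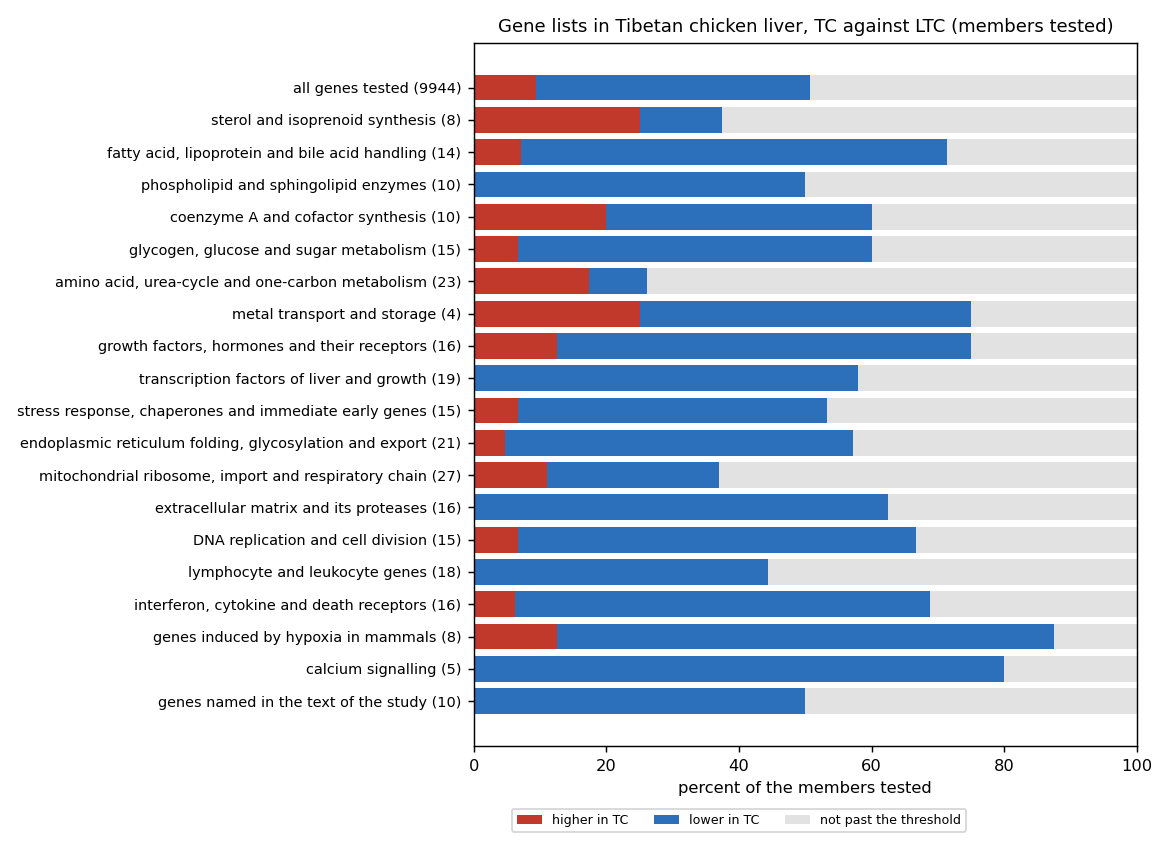
Share of the members tested (horizontal axis, percent) of each gene list (rows, number tested in brackets) that were higher in TC (red), lower in TC (blue) or not past the threshold (grey), with all 9944 genes tested in the top row. The amino acid list has 4 higher, 2 lower and 17 grey members, while the extracellular matrix list has 0 higher and 10 lower.

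Matrix genes past the threshold were all lower, 62.5% of those tested against 53.3% lower among genes with a symbol. MMP11 (ENSGALG00000005968, chromosome 15), stromelysin 3, a protease of tissue remodelling, had 0.337, 0.230 and 0.0790 FPKM in the TC livers, against 4.28, 4.33 and 1.87 FPKM in the LTC livers. All TC values were below 1 FPKM (log2 fold change -1.84 ± 0.39, limma adjusted p = 0.0026). SPARC, a collagen-binding matrix protein, was lower with 25.3, 28.3 and 26.9 FPKM in the TC livers, against 69.4, 90.4 and 81.3 FPKM in the LTC livers (-1.54, adjusted p = 0.00016). MMP2, a gelatinase, was lower with 0.697, 0.783 and 0.465 FPKM in the TC livers, against 3.20, 2.78 and 5.17 FPKM in the LTC livers (-1.49, adjusted p = 0.00015). The integrin subunit ITGA8, found on stellate cells in mammals, had 0.528, 0.424 and 0.286 FPKM in the TC livers, against 2.55, 1.98 and 3.05 FPKM in the LTC livers (-1.31, adjusted p = 0.00022), and THSD4, a protein of microfibrils, had 0.302, 0.210 and 0.154 FPKM in the TC livers, against 1.45, 1.43 and 1.66 FPKM in the LTC livers (-1.04, adjusted p = 0.00032). Of 33 listed matrix genes 16 were tested, with 0 higher, 10 lower and a median of -0.66, and with quantile normalization 0 were higher and 6 lower. The 6 markers of stellate cells and fibroblasts, which include SPARC and MMP2, summed to 43.0 to 54.6 FPKM in TC and 99.0 to 115 FPKM in LTC. The sum was mostly SPARC, followed by COL6A2 with 14.95 to 24.3 FPKM over the 6 livers. Of the 4 markers tested 3 were lower, and the part of these markers in the matrix calls was not tested.

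Genes of DNA replication and division stood at low levels. CDC23, a subunit of the anaphase-promoting complex, was lower with 3.32, 3.45 and 3.67 FPKM in the TC livers, against 7.68, 6.78 and 8.57 FPKM in the LTC livers (-0.95, adjusted p = 0.001). DCLRE1A, a DNA cross-link repair nuclease, UHRF1, which carries DNA methylation through replication, and CCNJ, a cyclin, were lower as well (-0.68, adjusted p = 0.0013, -0.70, adjusted p = 0.0014 and -0.85, adjusted p = 0.0029). Those 3 calls were lost with quantile normalization (adjusted p = 0.22, 0.16 and 0.062), and with all 48 libraries fitted UHRF1 was not called either (0.094). Of 27 listed genes 15 were tested, with a median of -0.48. Their calls were 1 higher and 9 lower, against 53.3% lower among genes with a symbol. With quantile normalization 2 were higher and 1 lower.

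Of the leukocyte genes tested 44.4% were past the threshold, all lower, against 53.3% lower among genes with a symbol. BLNK, an adaptor of the B cell receptor, had 2.66, 0.907 and 3.71 FPKM in the TC livers, against 6.39, 7.07 and 6.77 FPKM in the LTC livers (-1.27, adjusted p = 0.0039). DOCK2, which drives lymphocyte migration, was lower with 1.81, 1.47 and 1.51 FPKM in the TC livers, against 3.72, 2.95 and 4.63 FPKM in the LTC livers (-0.86, adjusted p = 0.0019, 0.10 with quantile normalization and 0.094 in the fit of all 48 libraries). WDFY4, a gene of antigen-presenting cells, was lower with 0.358, 0.387 and 0.361 FPKM in the TC livers, against 1.52, 1.64 and 1.26 FPKM in the LTC livers (-0.85, adjusted p = 0.0012, and 0.066 in the fit of all 48 libraries). The T cell co-stimulator TNFRSF9 was at 1.77, 2.18 and 1.82 FPKM in the TC livers, against 3.38, 3.35 and 3.25 FPKM in the LTC livers (-0.57, adjusted p = 0.0043, 0.77 with quantile normalization and 0.076 in the fit of all 48 libraries). Of 25 listed genes 18 were tested, with 0 higher, 8 lower and a median of -0.46; only 4 passed without LTC replicate 3 and 5 without TC replicate 2, and with quantile normalization 1 was higher and 2 lower. The 11 leukocyte markers summed to 29.0 to 48.7 FPKM in TC and 49.2 to 75.4 FPKM in LTC, with 5 of 8 tested lower, and their part in these calls was not tested.

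Of the interferon, cytokine and death receptor genes tested, 10 of 16 were lower, against 53.3% of genes with a symbol. IL20RA, a receptor subunit for cytokines of the interleukin 20 group, had 11.6, 14.9 and 12.2 FPKM in the TC livers, against 37.7, 36.5 and 40.4 FPKM in the LTC livers. Its groups were far apart (log2 fold change -1.50 ± 0.13, limma adjusted p = 6.3e-05). TNFRSF1A, the main receptor of tumour necrosis factor, was lower with 6.79, 6.93 and 8.49 FPKM in the TC livers, against 18.4, 18.5 and 28.5 FPKM in the LTC livers (-1.42, adjusted p = 0.00033). The kinase TBK1, which switches on interferon genes, was lower with 3.08, 2.31 and 2.86 FPKM in the TC livers, against 7.11, 5.89 and 6.26 FPKM in the LTC livers (-0.99, adjusted p = 0.00021), and the death receptor FAS with 2.37, 1.87 and 2.36 FPKM in the TC livers, against 4.32, 5.03 and 5.34 FPKM in the LTC livers (-0.88, adjusted p = 0.00047). Of 17 listed genes these 16 were tested, with 1 higher and a median of -0.81, and with quantile normalization 1 was higher and 6 lower.

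Of 23 genes that hypoxia induces in mammals 8 were tested, with a median of -0.76. Among them 1 was higher and 6 lower, against 53.3% lower among genes with a symbol. The higher one was STC2, and the lower ones included PDK1 and MMP2, all given above. C-MET, the receptor of hepatocyte growth factor, was lower with 5.61, 3.41 and 3.96 FPKM in the TC livers, against 10.9, 10.02 and 7.47 FPKM in the LTC livers (-0.98, adjusted p = 0.002). With quantile normalization 1 was higher and 3 lower. The list was drawn from mammalian work, and most of it was not tested here.

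Calcium signalling had 5 of 20 listed genes tested, with a median of -0.73. There 0 were higher and 4 lower, against 53.3% lower among genes with a symbol. TRPC1, a cation channel, was lower with 1.96, 0.903 and 1.02 FPKM in the TC livers, against 3.66, 4.76 and 4.64 FPKM in the LTC livers (-1.25, adjusted p = 0.00044). CAMK2D, a calcium-dependent kinase, was lower with 2.63, 2.41 and 3.23 FPKM in the TC livers, against 6.501, 6.44 and 10.3 FPKM in the LTC livers (-1.20, adjusted p = 0.0025). ATP2B4, a calcium pump of the plasma membrane, and ADORA2B, an adenosine receptor, were lower too (-0.73, adjusted p = 0.0024 and -0.55, adjusted p = 0.019). Both of the last calls were lost with quantile normalization (adjusted p = 0.14 and 0.79), and that of ADORA2B also without TC replicate 1, LTC replicate 1 or LTC replicate 2 (up to 0.083) and with the upper quartile scaling (0.054). Fitted with all 48 libraries, ATP2B4 was also no longer called (0.062). KCNMA1 (ENSGALG00000004980, chromosome 6), the pore of a calcium-gated potassium channel, had 1.82, 2.04 and 2.74 FPKM in the TC livers, against 14.5, 8.95 and 18.3 FPKM in the LTC livers (log2 fold change -2.18 ± 0.29, limma adjusted p = 0.00024).

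Other genes with a symbol were among the 12 largest rises. RSU1 (ENSGALG00000008720, chromosome 2), a Ras suppressor found at integrin adhesions, had 25.01, 22.0 and 30.0 FPKM in the TC livers, against 6.77, 7.18 and 8.85 FPKM in the LTC livers (log2 fold change 1.63 ± 0.20, limma adjusted p = 0.00016). MYH15 (ENSGALG00000015358, chromosome 1), a myosin heavy chain, had 3.21, 2.16 and 2.02 FPKM in the TC livers, against 0.151, 0.283 and 0.163 FPKM in the LTC livers (log2 fold change 1.52 ± 0.15, limma adjusted p = 0.0001). The 7 striated muscle markers, none of them tested, summed to 0.673 to 1.499 FPKM in TC and 0.509 to 0.575 FPKM in LTC, and TRDN was at 0 in all 6. ACTN2, an actinin of the sarcomere chosen here after its values were seen, had 0.449, 0.297 and 0.298 FPKM in TC, against 0.0195, 0.109 and 0.0288 FPKM in LTC. Over the 6 livers NRAP ranged from 0.324 to 0.871 FPKM and RYR2 from 0.0117 to 0.127 FPKM. MYOM3, MYPN and MYBPC1 were at or below 0.0363 FPKM. In heart MYH15 reached 3978, 5926 and 3763 FPKM in TC, against 3764, 3207 and 2604 FPKM in LTC, and the part of muscle tissue in the liver values was not tested. TMEM141 (ENSGALG00000009054, chromosome 17), a membrane protein, had 59.5, 69.3 and 82.5 FPKM in the TC livers, against 31.1, 23.9 and 30.6 FPKM in the LTC livers (log2 fold change 1.27 ± 0.19, limma adjusted p = 0.00039). Lack of overlap was required for this choice. NIP7 (ENSGALG00000000650, chromosome 11), a factor of large ribosomal subunit assembly, had 32.8, 47.2 and 43.1 FPKM in the TC livers, against 18.4, 20.6 and 20.4 FPKM in the LTC livers (log2 fold change 1.00 ± 0.16, limma adjusted p = 0.00052). NKIRAS1 (ENSGALG00000011289, chromosome 2), a Ras-like binder of the inhibitor of NF-kappaB, had 3.47, 3.14 and 5.03 FPKM in the TC livers, against 1.14, 0.995 and 1.87 FPKM in the LTC livers (log2 fold change 1.06 ± 0.21, limma adjusted p = 0.0018). SPIRE2 (ENSGALG00000000521, chromosome 11), an actin nucleator, had 8.01, 13.3 and 17.0 FPKM in the TC livers, against 7.02, 5.19 and 2.95 FPKM in the LTC livers (log2 fold change 1.19 ± 0.30, limma adjusted p = 0.0067). In IFT57 (ENSGALG00000015356, chromosome 1), a part of the transport machinery of cilia, TC replicate 1 was far above the rest, with 12.4, 4.23 and 3.31 FPKM in the TC livers, against 1.98, 2.76 and 1.86 FPKM in the LTC livers (log2 fold change 1.08 ± 0.34, limma adjusted p = 0.019). The call of IFT57 was lost without LTC replicate 1 or LTC replicate 3 (adjusted p = 0.055 and 0.059) and with the 6 libraries alone (0.051).

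Among the largest falls, ODZ2 and ABLIM1 stood at low levels. ODZ2 (ENSGALG00000001768, chromosome 13), a teneurin, a cell-surface protein known from neurons, had 0.288, 0.121 and 0.0320 FPKM in the TC livers, against 2.60, 5.27 and 2.16 FPKM in the LTC livers (log2 fold change -1.86 ± 0.34, limma adjusted p = 0.0011). The 6 neuron markers summed to 1.06 to 2.86 FPKM in TC and 4.04 to 4.45 FPKM in LTC. ABLIM1 (ENSGALG00000009048, chromosome 6), an actin-binding protein, had 0.910, 0.461 and 0.466 FPKM in the TC livers, against 3.71, 6.65 and 4.35 FPKM in the LTC livers (log2 fold change -1.85 ± 0.24, limma adjusted p = 0.00022). Both were chosen from genes without overlap.

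Of the most abundant genes with a symbol, FABP1 and MT4 are given above. CHCHD10, a small protein of mitochondrial cristae, had 1514, 2554 and 1800.4 FPKM in the TC livers, against 1186, 1155 and 1596 FPKM in the LTC livers, with overlap between the groups (0.56, adjusted p = 0.046). The call was lost without 9 of the 12 libraries, among them TC replicate 2, TC replicate 3, LTC replicate 1 and LTC replicate 2, and its sign turned with quantile normalization (-0.06). RPL27, a ribosomal protein, was higher with 1293, 1595 and 1958 FPKM in the TC livers, against 932, 1128 and 947 FPKM in the LTC livers (0.67, adjusted p = 0.0091, and 0.47 with quantile normalization). The cytoskeletal actin gene ACTB stood at 600.4, 963 and 1157 FPKM in the TC livers, against 1018, 982 and 1130.0 FPKM in the LTC livers, with overlap (-0.25, adjusted p = 0.4, and -0.78 with adjusted p = 0.020 under quantile normalization).

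Of 19 listed genes that the study names in its text for selection in chicken genomes, 10 were tested. Of these, 0 were higher and 5 lower, with a median of -0.43, against 53.3% lower among genes with a symbol. The list leaves out some genes of that text, among them CAMK2D, which is given above. PANK1 is given above. EVI5, a cell cycle regulator with a GTPase-activating domain, was lower with 5.82, 3.67 and 4.11 FPKM in the TC livers, against 11.7, 9.18 and 11.5 FPKM in the LTC livers (-1.10, adjusted p = 0.0021). The amyloid precursor gene APP, the Notch target HEYL and the lysosomal thioesterase PPT1 were lower at smaller margins (-0.43, adjusted p = 0.023, -0.82, adjusted p = 0.029 and -0.43, adjusted p = 0.046). Each of these 3 calls was lost with the upper quartile scaling (0.24, 0.056 and 0.21) and without several libraries, LTC replicate 1 among them in all 3 (0.081, 0.072 and 0.086). LIPA, the lysosomal acid lipase, had a log2 fold change of -0.50 (adjusted p = 0.088), the lactate carrier relative SLC16A12 0.08 (0.81), and TRIT1, ZDHHC9 and PDSS2 -0.09, 0.18 and 0.07 (0.66, 0.46 and 0.83). Without LTC replicate 1, 2 of the 10 were past the threshold, and 3 without LTC replicate 3 or any 1 of the TC libraries. With the upper quartile scaling 0 were higher and 2 lower. With quantile normalization 2 were higher and 4 lower, HEYL was no longer called (0.30), and TRIT1 and ZDHHC9 were called higher (0.41 and 0.47, adjusted p = 0.041 and 0.049).

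Among genes past the threshold with no overlap between the groups, the largest changes were in IDs with no symbol in the sources used here. ENSGALG00000027874 had 531, 232 and 248 FPKM in the TC livers, against 1.28, 3.62 and 7.99 FPKM in the LTC livers (log2 fold change 6.10 ± 0.63, limma adjusted p = 0.0001). In lowland birds this ID fell, with 5.79, 4.32 and 1.75 FPKM in the HLC livers, against 76.6, 16.6 and 16.9 FPKM in the LC livers (log2 fold change -2.65, limma adjusted p = 0.018). Its difference between chicken types was 8.75 on the log2 scale (limma adjusted p = 0.0016). ENSGALG00000027959 had 71.3, 146 and 267 FPKM in the TC livers, against 0, 15.3 and 0 FPKM in the LTC livers (log2 fold change 5.80 ± 1.17, limma adjusted p = 0.002), with LTC replicates 1 and 3 listed at 0. ENSGALG00000007077 had 8.77, 4.23 and 13.2 FPKM in the TC livers, against 170.1, 223 and 337 FPKM in the LTC livers (log2 fold change -4.71 ± 0.37, limma adjusted p = 2.8e-05), and ENSGALG00000010469 had 19.4, 7.41 and 19.2 FPKM in the TC livers, against 414, 388 and 312 FPKM in the LTC livers (log2 fold change -4.61 ± 0.38, limma adjusted p = 3.1e-05). Lack of overlap was a condition for choosing these 4. ENSGALG00000027959, ENSGALG00000007077 and ENSGALG00000010469 kept their direction in lowland livers (log2 fold changes 3.97, -4.31 and -2.56, limma adjusted p = 0.039, 9.7e-05 and 0.0018).

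Whether the change with altitude differed from that of lowland chickens was tested as (TC minus LTC) minus (HLC minus LC), which share no library. In lowland livers 1649 of the 9944 genes were past the threshold for HLC against LC (16.6%), 467 higher (4.7%) and 1182 lower (11.9%), with a median log2 fold change of -0.15. Of the 5037 genes called in Tibetan livers, 991 were called in the same direction in lowland livers, which is 60.1% of the lowland calls and 19.7% of the Tibetan calls, and 78 in the opposite direction. The difference itself was past the threshold in 1390 genes (14.0%), 385 of them positive (3.87%) and 1005 negative (10.1%). With quantile normalization 690 were (6.94%), 329 positive (3.31%) and 361 negative (3.63%). The count fell to between 458 and 918 without LTC replicate 1, LTC replicate 3, TC replicate 2, HLC replicate 2, HLC replicate 3, LC replicate 2 or LC replicate 3, in each case alone, and was 2005 without TC replicate 1.

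STC2 and OSGIN1 changed in opposite directions in the 2 kinds of chicken. STC2 had 4.84, 4.51 and 1.69 FPKM in the HLC livers, against 7.997, 20.7 and 10.4 FPKM in the LC livers, a fall (log2 fold change -1.56, adjusted p = 0.037), so that the difference was 4.01 on the log2 scale, with a standard error of 0.64 and an adjusted p of 0.0063 from limma. OSGIN1 had 64.1, 40.4 and 49.1 FPKM in the HLC livers, against 16.3, 3.07 and 13.6 FPKM in the LC livers, a rise (log2 fold change 2.34, adjusted p = 0.0078), and the difference was -4.72 on the log2 scale, with a standard error of 0.65 and an adjusted p of 0.0047 from limma. Both differences stayed past the threshold without each of the 12 libraries.

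For FABP1 the lowland values overlapped, with 3802, 4230.1 and 4232 FPKM in the HLC livers, against 4481, 4087 and 4160.1 FPKM in the LC livers (log2 fold change -0.05, adjusted p = 0.85), and the difference was 1.84 on the log2 scale, with a standard error of 0.24 and an adjusted p of 0.0041 from limma. It too stayed past the threshold without each of the 12 libraries, though not in the fit of all 48 (adjusted p = 0.37). CHCHD10 had 568, 539 and 740.4 FPKM in the HLC livers, against 2043, 1862 and 1923 FPKM in the LC livers, a fall (log2 fold change -1.67, adjusted p = 0.00083), and a difference of 2.23 on the log2 scale, with a standard error of 0.30 and an adjusted p of 0.0042 from limma. For CHCHD10 the lowland fall was larger than the Tibetan rise given above. SLC40A1, IGF2R, TNFRSF1A and MYH15 changed more in Tibetan livers, with differences of -1.42 (adjusted p = 0.017), -1.45 (adjusted p = 0.007), -1.34 (adjusted p = 0.016) and 1.43 (adjusted p = 0.0057).

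Several of the largest changes were also past the threshold in lowland livers. LSS had 39.6, 36.5 and 47.6 FPKM in the HLC livers, against 7.17, 8.99 and 6.28 FPKM in the LC livers (log2 fold change 2.32, adjusted p = 0.0019), and the difference was -0.01 on the log2 scale, with a standard error of 0.49 and an adjusted p of 0.99 from limma. GFRA3 had 37.6, 33.2 and 43.1 FPKM in the HLC livers, against 172, 233 and 232 FPKM in the LC livers (log2 fold change -2.44, adjusted p = 0.00018), and the difference was 0.17 on the log2 scale, with a standard error of 0.34 and an adjusted p of 0.75 from limma. PANK1, MYCL and KCNMA1 were called lower in both kinds of chicken, with lowland log2 fold changes of -1.65, -2.05 and -1.69 and differences not past the threshold (adjusted p = 0.49 for PANK1, adjusted p = 0.53 for MYCL and adjusted p = 0.42 for KCNMA1). A p above the threshold does not show that the changes were equal. For MT1 the lowland values overlapped, with 1789, 342 and 325 FPKM in the HLC livers, against 514, 480.5 and 1043 FPKM in the LC livers (log2 fold change -0.12, adjusted p = 0.91), and the difference just missed the threshold (-2.99 on the log2 scale, with a standard error of 0.94 and an adjusted p of 0.055 from limma).

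**Figure D5:**
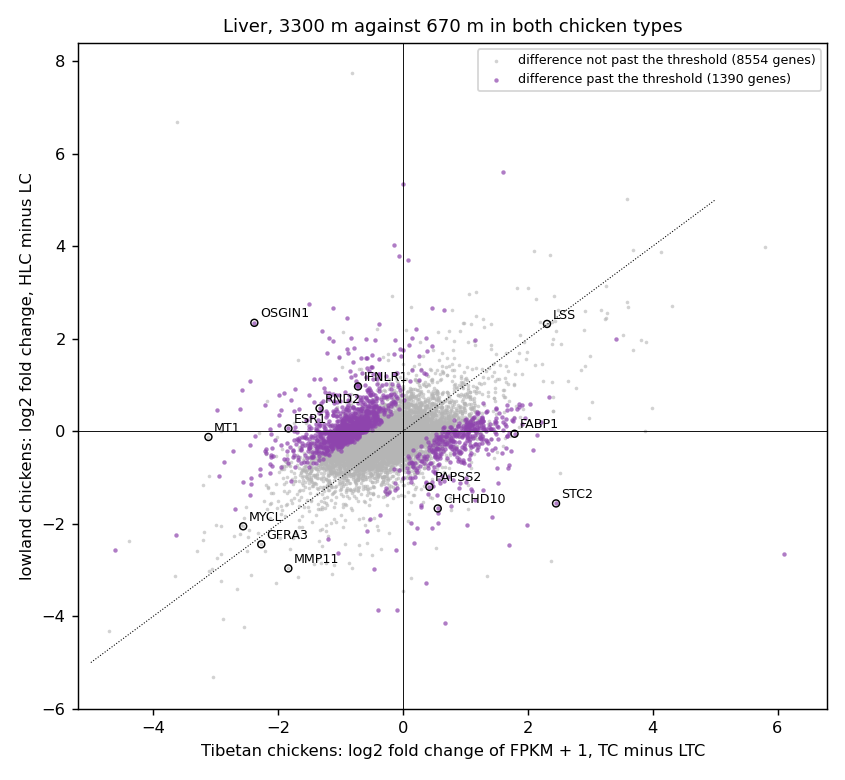
Log2 fold change of FPKM + 1 between 3300 m and 670 m in Tibetan livers (horizontal, TC minus LTC) and in lowland livers (vertical, HLC minus LC) for the 9944 genes tested; the dotted line marks equal change. Purple points are the 1390 genes whose difference was past the threshold, among them STC2 at 2.45 and -1.56 and OSGIN1 at -2.38 and 2.34, while LSS at 2.31 and 2.32 lies on the line.

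Among the other tissues of the Tibetan chickens, 1406 of 11601 genes were past the threshold in lung (12.1%), 44 of 11614 in brain (0.379%) and 0 of 10376 in heart, where 1898 had an unadjusted p under 0.05 in limma. The liver change minus the lung change was tested in 1 fit of all 48 libraries and was past the threshold in 2647 of 11997 genes (22.1%), 718 positive (5.98%) and 1929 negative (16.1%). Without TC replicate 2 of the liver 1690 were, and with quantile normalization 1648. Whether liver and lung libraries with 1 number came from the same bird is not stated.

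Neither PANK1 nor GFRA3 was past the threshold in lung. PANK1 had 8.22, 10.9 and 9.98 FPKM in TC, against 6.19, 7.67 and 8.69 FPKM in LTC in lung, and the difference between the tissues was -2.34 on the log2 scale, with a standard error of 0.23 and an adjusted p of 3.6e-09. GFRA3 had 1.97, 1.73 and 1.36 FPKM in TC, against 2.35, 2.42 and 1.24 FPKM in LTC in lung, a difference of -2.13 on the log2 scale, with a standard error of 0.29 and an adjusted p of 3.3e-06. LSS, STC2, MYCL and OSGIN1 had lung log2 fold changes of 0.12, 0.39, -0.13 and -0.25, none past the threshold, and differences of 2.19 (adjusted p = 0.00021), 2.07 (adjusted p = 0.0053), -2.43 (adjusted p = 3.6e-05) and -2.13 (adjusted p = 0.0053). By group mean MDK went in opposite directions, with 2.07, 2.68 and 2.18 FPKM in TC, against 4.01, 10.9 and 7.14 FPKM in LTC in lung. The difference between the tissues was 2.13 on the log2 scale, with a standard error of 0.50 and an adjusted p of 0.003. MMP2 was lower in lung as well (-1.53, adjusted p = 0.043), while MMP11 missed the threshold there (-1.93, adjusted p = 0.068), with differences of 0.04 (adjusted p = 0.96) and 0.10 (adjusted p = 0.94).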

How the data were processed

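Total RNA was extracted from liver with TRIzol and sequenced after TruSeq preparation. FPKM per gene were deposited by the authors in 1 table of all 48 libraries. TopHat, Cufflinks 2.2.1 and the chicken build galGal4 stand in the processing notes of the submitters, and the options and the annotation release were not given in the sources used here. FPKM divides by gene length and library total, so a few abundant genes can shift all others, and depth is unknown. The study's paper holds no RNA-sequencing test or value, so the test was chosen here.

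A gene entered the test when 3 or more of the 12 liver libraries reached 1 FPKM. The log2(FPKM + 1) values were fitted with limma 3.58.1 in R 4.3.3 as 1 mean per group, with a trended variance prior, and p-values were adjusted by Benjamini-Hochberg over all genes tested with a threshold of 0.05, 2-sided. Fold changes on this scale understate those of low genes, and standard errors are limma's. An exact permutation test of 3 against 3 libraries cannot go below 0.10 and was not used. The tissue comparison fitted all 48 libraries together. No deposited column was left unused.

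Groups came from the bird code and altitude in the sample labels. Symbols came from a spreadsheet supplementing the study, held in part, and covered 1183 of 17108 genes (6.91%); the RefSeq table matched 0 of the Ensembl IDs. Because that spreadsheet concerns genes picked in a genome study, genes with a symbol are no random sample of the table. Named genes were the 12 largest in each direction with a symbol and no overlap, and the up to 4 smallest p in each list. Added to these were the tested genes listed from the study's text, and the 5 largest in each direction for the chicken type and tissue differences. The 6 most abundant completed them, with at most 2 IDs per direction that had no symbol, passed the threshold and showed no overlap. Results that need certain genes are not reported here. Members and lists were chosen with earlier results of these data known.

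The alternatives were a pseudocount of 0.1, no filter, a mean of at least 5 FPKM, upper quartile scaling, quantile normalization, no variance trend, all 48 libraries, the 6 libraries alone, a block for the replicate number, and leave-one-out fits over the libraries. Whether the same number in TC and LTC paired the libraries could not be told. In simulated data 200 of 9944 genes were changed, all with a mean log2(FPKM + 1) above 2. The TC against LTC test found 70.5% of changes of 1 on the log2 scale and 97.5% of changes of 2, but 0.5% of changes of 0.5. False calls made up 6.00%, 3.47% and 50.0% of the calls at 1, 2 and 0.5, and the share at 0.5 rests on very few calls. For the difference between chicken types the test found 34.0% and 87.0% at 1 and 2, with 2.86% and 6.95% of calls false. Of changes of 0.5 it found 0.0%. These shares do not carry over to genes at lower levels or to data where 50.7% of genes were called. A check of genes on the Z chromosome and one of promoter motifs were not run, since no source used here places genes on Z or gives promoter sequence for these IDs.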

Additional observations from a re-analysis of the deposited data

Results flagged for a closer look

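Genes are given here where the limma test of a difference between chicken types or between tissues was past the threshold, up to the 5 largest in each direction with a symbol. Values are log2 and positive when the change with altitude was more positive in Tibetan than in lowland liver, or in liver than in lung.

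Between chicken types, the difference was 4.01 for STC2, 2.23 for CHCHD10, 1.88 for AGMO, 1.84 for FABP1 and 1.63 for PAPSS2, and -4.72 for OSGIN1, -1.90 for ESR1, -1.83 for RND2, -1.69 for IFNLR1 and -1.51 for SEL1L. Of these, STC2, CHCHD10, FABP1 and OSGIN1 stayed past the threshold without each of the 12 libraries, while AGMO, PAPSS2, ESR1, RND2, IFNLR1 and SEL1L lost the call without at least 4 of them. AGMO, which cleaves ether lipids, had 57.9, 36.9 and 58.9 FPKM in the TC livers, against 39.2, 38.8 and 44.4 FPKM in the LTC livers (0.29, adjusted p = 0.52), and 31.8, 12.3 and 13.6 FPKM in the HLC livers, against 33.6, 74.7 and 64.6 FPKM in the LC livers, lower in lowland birds at 3300 m (log2 fold change -1.59, adjusted p = 0.014). PAPSS2, which makes the sulfate donor of the cell, had 45.7, 38.7 and 51.1 FPKM in the TC livers, against 39.8, 27.2 and 33.8 FPKM in the LTC livers (0.42, adjusted p = 0.33), and 91.4, 33.7 and 36.7 FPKM in the HLC livers, against 80.6, 112 and 158 FPKM in the LC livers, also lower (log2 fold change -1.20, adjusted p = 0.036). In both genes the TC and LTC values overlapped. ESR1, described above, had 3.08, 7.85 and 8.87 FPKM in the HLC livers, against 5.73, 6.74 and 5.02 FPKM in the LC livers, not past the threshold (log2 fold change 0.06, adjusted p = 0.92). SEL1L, a part of the machinery that removes misfolded proteins, was lower with 7.52, 5.48 and 3.44 FPKM in the TC livers, against 16.7, 10.3 and 19.3 FPKM in the LTC livers (-1.35, adjusted p = 0.0024). RND2, a small GTPase, was lower with 0.397, 0.313 and 0.164 FPKM in the TC livers, against 2.41, 1.68 and 2.76 FPKM in the LTC livers (-1.34, adjusted p = 0.0045, and 0.054 with quantile normalization). IFNLR1, the receptor of interferon lambda, was not past the threshold in Tibetan liver (-0.72, adjusted p = 0.061, and called without TC replicate 1 at -1.02, adjusted p = 0.012) and was higher in HLC than in LC (log2 fold change 0.97, adjusted p = 0.045).

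Between tissues, liver minus lung was 2.93 for STMN2, 2.19 for LSS, 2.13 for MDK, 2.07 for STC2 and 1.77 for MME, and -2.43 for MYCL, -2.34 for PANK1, -2.13 for OSGIN1 and -2.13 for GFRA3. STMN2, a neuronal protein, and MME, a membrane peptidase, were at or below 1.08 FPKM in these 6 livers and not tested there. Their differences lay in lung, where STMN2 had 5.68, 6.08 and 17.0 FPKM in TC, against 46.3, 57.4 and 61.9 FPKM in LTC, and MME had 1.13, 1.998 and 1.25 FPKM in TC, against 10.8, 5.93 and 5.32 FPKM in LTC. The OSGIN1 difference between tissues missed the threshold with quantile normalization (adjusted p = 0.054).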

How the results depend on the processing

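The TC against LTC comparison gave 5037 genes past the threshold, and 3555 of them, 630 higher and 2925 lower, were called the same way without each of the 12 liver libraries. The count ran from 3947 without TC replicate 2 to 5164 without HLC replicate 1 (higher 724 to 965, lower 3173 to 4203). Genes with a mean of at least 5 FPKM gave 2613 calls (lower 1819), from fewer genes tested. Quantile normalization gave 3217 (higher 1543, lower 1674), and it turned CHCHD10 to -0.057 and TRIT1 to 0.41. For the difference between chicken types the mean of at least 5 FPKM gave 796 (lower 462) and quantile normalization 690 (lower 361), and leaving out libraries gave 458 to 2005 (higher 131 to 566, lower 327 to 1439). For liver minus lung, quantile normalization gave 1648 (lower 849) and upper quartile scaling 1253 lower, and leaving out libraries gave 1690 to 2752 (higher 518 to 722, lower 1147 to 2030, with 1147 without TC replicate 2 of the liver and 1259 without TC replicate 1 of the lung). Apart from the stricter filter, which tests fewer genes, the cause was not tested.

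The replicate block gave 4832 calls for TC against LTC (895 higher, 3937 lower), 992 for the difference between chicken types and 2624 for liver minus lung. Deviations of TC and LTC libraries with the same number correlated at 0.131, -0.00153 and 0.0805, and those with unlike numbers at -0.187 to 0.0839. With 3 libraries per group these values cannot show whether the numbers paired the libraries.

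For 95 named genes, 1955 of 2049 alternative values stayed on their side of the threshold, 5 of these with another sign in genes called in neither fit, while 79 lost the call, 13 gained one and 2 turned round. Of 396 list counts, 364 stayed within 1.5 times. Dropping genes with no signal in a whole group was chosen after seeing the data; 7 genes tested were at 0 in all TC libraries, 1 of them lower, and 6 in all LTC libraries, none of them called. Depth is unknown, so a gene at low FPKM carries a counting error that cannot be stated.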

Other observations

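Some genes of the early stress response varied widely inside the groups. EGR1, an immediate early transcription factor, had 2.28, 4.42 and 62.6 FPKM in the TC livers, against 1.21, 2.94 and 11.2 FPKM in the LTC livers (1.14, adjusted p = 0.43), with TC replicate 3 far above the rest. HSP90AA1, a heat-shock chaperone, had 412, 216 and 579 FPKM in the TC livers, against 150.5, 90.9 and 258 FPKM in the LTC livers (1.28, adjusted p = 0.053), with overlap between the groups. Both were chosen after their values were seen, as were the next 3 genes.

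FRYL, EDARADD and ENTPD4 were lower in TC than in LTC livers and higher in HLC than in LC livers. FRYL, a gene with a role in cell shape in other animals, had 2.44, 1.37 and 1.55 FPKM in the TC livers, against 3.39, 3.45 and 4.55 FPKM in the LTC livers (-0.79, adjusted p = 0.0018), and in lowland birds 4.59, 4.40 and 5.12 FPKM in the HLC livers, against 2.79, 3.26 and 2.92 FPKM in the LC livers (log2 fold change 0.51, adjusted p = 0.044). EDARADD, an adaptor of the ectodysplasin receptor, had 3.87, 3.18 and 4.62 FPKM in the TC livers, against 5.87, 6.34 and 7.55 FPKM in the LTC livers (-0.64, adjusted p = 0.014), and in lowland birds 5.45, 6.65 and 5.83 FPKM in the HLC livers, against 4.15, 2.13 and 3.53 FPKM in the LC livers (log2 fold change 0.74, adjusted p = 0.023). ENTPD4, a nucleotidase of the Golgi apparatus, had 2.28, 2.12 and 2.66 FPKM in the TC livers, against 2.78, 3.66 and 3.94 FPKM in the LTC livers (-0.40, adjusted p = 0.022), and in lowland birds 4.57, 4.50 and 4.39 FPKM in the HLC livers, against 2.76, 3.29 and 3.14 FPKM in the LC livers (log2 fold change 0.44, adjusted p = 0.041). With quantile normalization none of the 3 was past the threshold in Tibetan livers, and the value of ENTPD4 changed sign to 0.09.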
